A study of Mus musculus with 12 samples.

Results

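Malat1, Neat1, Kcnq1ot1, Meg3, Rian, Mirg, H19 and Mir99ahg are long noncoding RNAs of mouse autosomes that stay largely in the nucleus or are transcribed from imprinted domains, where only the copy from 1 parent is active. They were chosen by symbol from 56065 gene identifiers in a submandibular gland (SMG) count table, and all 8 passed the low-count filter that left 17893 genes for testing. Each was called a long noncoding RNA (lncRNA) gene by the annotation, as were 1793 of the tested genes.

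The study compared the SMG of C57BL/6J mice (wild type, WT) with that of C57BL/6J-Pou2f3-/- mice, whose germline mutation of Pou2f3 removes the transcription factor that defines tuft cells, a rare chemosensory epithelial cell. Female and male mice were 8 weeks old, and each of the 4 groups (female WT, female Pou2f3-/-, male WT and male Pou2f3-/-) held 3 mice, with 1 bulk RNA-sequencing library per mouse. No other allele or treatment was given for any group. The labels named the molecule as polyadenylated RNA, whereas the methods described stranded libraries of total RNA depleted of ribosomal RNA. Mature Malat1 and the long form of Neat1 end without a poly(A) tail, so their levels would depend on which of these was used, and its part in the values was not tested. RNAs of the Rn7s genes, which also lack a poly(A) tail, took 12.4% to 44.3% of counts across the 12 libraries.

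Malat1 associates with nuclear speckles, where splicing factors gather, and Neat1 is the scaffold on which paraspeckles are built. Kcnq1ot1 is made from the paternal chromosome, antisense to Kcnq1, and silences neighbouring genes in cis. H19 is made from the maternal chromosome beside the growth factor gene Igf2, and Meg3, Rian and Mirg are maternal transcripts of the Dlk1-Dio3 domain. Mir99ahg is a host gene of microRNAs (miRNAs).

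Libraries held 47032175 to 67882207 estimated counts, so that a count of 0 allowed up to 3 counts, or 0.0399 to 0.0782 CPM (counts scaled to a common library size, after trimmed mean of M-values, TMM, normalization); such limits cover counting error only. Xist had at least 24032 counts in every female library and at most 3 in any male library. Pou2f3 itself had at most 10 counts in any of the 12 libraries, too few to check the knockout. Of 10 tuft cell markers, Pou2f3 among them, 4 were tested; in females Avil was called higher in Pou2f3-/- glands (log2 2.06, adjusted p = 0.0139, edgeR) and none lower, and Gnat3 and Il25 were at 0 throughout. Their summed level was 18.0 to 22.9 CPM in female WT, 22.0 to 24.7 in female Pou2f3-/-, 9.80 to 11.5 in male WT and 10.2 to 14.0 in male Pou2f3-/- libraries, so it was not lower in the knockouts. Only 4 of the 10 passed the low-count filter, so this sum cannot show whether tuft cells were present. Krt8, a ductal keratin, had 3040 to 8381 counts, and Aqp5, the acinar water channel, had 4897 to 14861. Female WT libraries stood apart in composition: their TMM factors were 0.625 to 0.759, against 0.902 to 1.45 in the other 9 libraries. Composition also differed by sex: the Rn7s genes, which give small cytoplasmic and nuclear RNAs without a poly(A) tail, took 31.8% to 44.3% of counts in female and 12.4% to 30.7% in male libraries, and the 20 most abundant genes 72.3% to 79.3% and 51.8% to 61.5%. Mitochondrial genes took 0.875% to 1.04% of counts in female WT and 1.11% to 1.35% in male WT libraries. In Pou2f3-/- libraries the order was reversed, with 0.948% to 1.19% in females and 0.723% to 0.804% in males. The part of this in the sex comparisons was not tested. All lncRNA genes together took 0.837%, 0.655% and 0.445% of counts in female WT mice 1, 2 and 3, against 1.08% to 1.90% in the other libraries. Female WT mouse 3 was the lowest of its group for 6 of the 8 RNAs, and calls that are lost without it are given both ways. Male WT mouse 2 was likewise the lowest of its group for 6 of the 8, and male Pou2f3-/- mouse 1 for 5.

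Among females, Pou2f3-/- glands had more Malat1, Neat1, Kcnq1ot1, Meg3 and Mir99ahg than WT glands, by 1.71-, 2.94-, 2.18-, 4.32- and 1.32-fold in the edgeR quasi-likelihood test across all genes. These were 5 of 8 RNAs at an adjusted p under 0.05, all of them higher, whereas 36.9% of all tested genes passed in either direction, 17.6% of them higher and 19.3% lower. Of the tested lncRNA genes, 24.5% passed as higher and 2.18% as lower. The groups did not overlap for 6 of the 8 RNAs, as for 49.3% of all tested genes. The median log2 fold change was 0.95 over the 8 RNAs, 0.62 over lncRNA genes, -0.08 over protein-coding genes and 0.03 over all genes. Other lncRNA genes thus shifted the same way, and whether the 8 differ from them was not tested. In such bulk tissue, a change in the share of cells that make an RNA and a change in its amount per cell cannot be told apart.

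**Figure D1:**
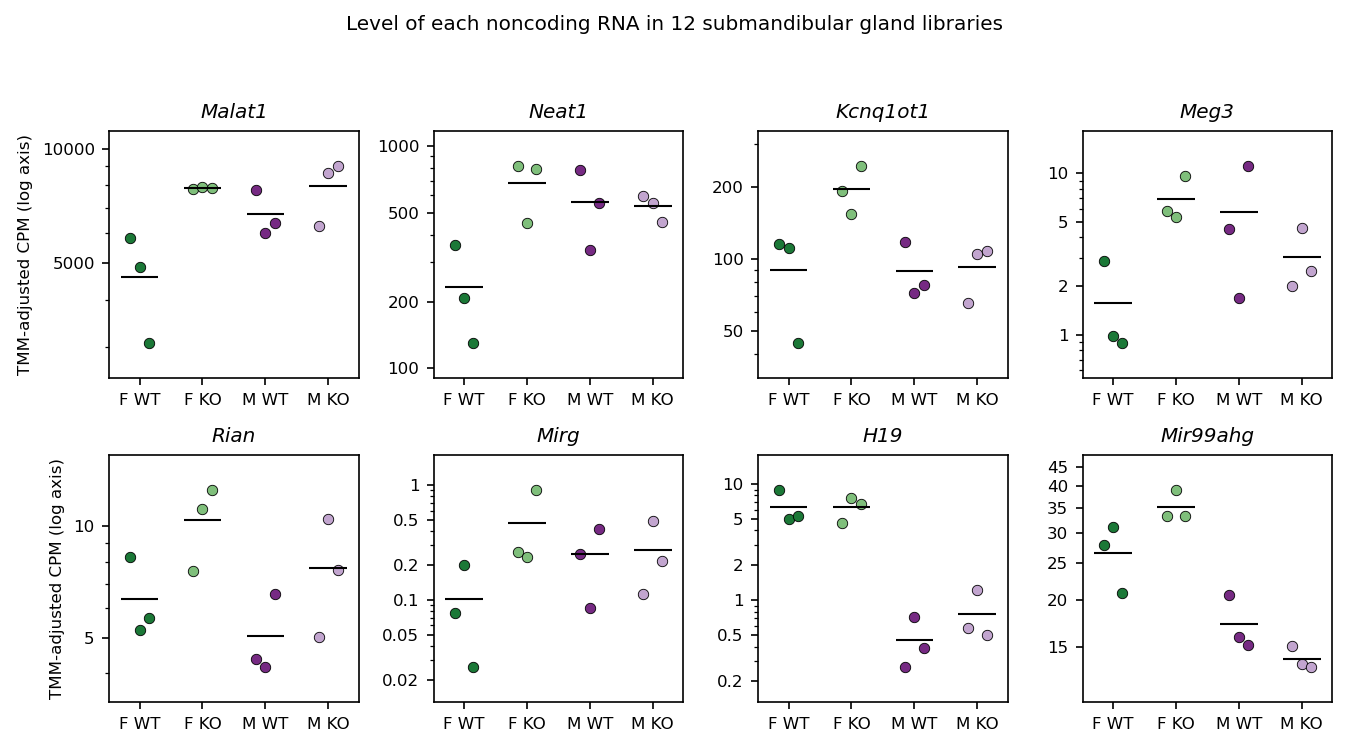
Each panel plots 1 RNA, with TMM-adjusted CPM on a log axis for 3 female WT (F WT), 3 female Pou2f3-/- (F KO), 3 male WT (M WT) and 3 male Pou2f3-/- (M KO) libraries; points are mice and bars are group means. Female Pou2f3-/- points lie above all female WT points for Malat1, Neat1, Kcnq1ot1, Meg3, Mirg and Mir99ahg, and all male points lie below all female points for H19.

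Malat1 lies at chr19:5845717-5853602 on the minus strand (GRCm39, Gencode M39, ENSMUSG00000092341.6), an annotated span of 7886 bases. Its RefSeq promoter, chr19:5852651-5852950 on the minus strand of GRCm39, is shown with those of Kcnq1ot1 and Meg3, RNAs higher in female Pou2f3-/- glands, to set an abundant nuclear RNA beside an RNA from each of 2 imprinted domains. The RefSeq promoter of Mir99ahg, also higher, held 8 CpG dinucleotides and none of the motifs and is not printed. It lies at chr16:77125966-77126265, inside a gene annotated from chr16:76970521 on the plus strand. The Malat1 window also lies wholly inside its annotated span, so both stand at RefSeq starts downstream of the Gencode 5′ end. Each of the 3 promoters runs from 250 bases before to 50 bases after the RefSeq start, 5′ to 3′, with capitals for matches to the searched motifs.
Malat1: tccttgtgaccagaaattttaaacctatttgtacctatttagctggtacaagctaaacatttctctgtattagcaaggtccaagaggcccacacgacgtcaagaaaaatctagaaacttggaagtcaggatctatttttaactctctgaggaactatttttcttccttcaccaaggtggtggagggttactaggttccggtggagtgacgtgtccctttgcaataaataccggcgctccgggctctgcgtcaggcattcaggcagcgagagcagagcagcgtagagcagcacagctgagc
None of the 6 motifs searched occurred in it. They were CCAAT (bound by NF-Y; in 37.4% of 32851 RefSeq mouse promoters of this length), GGGCGG (the GC box; 35.7%), TATAAA (the TATA box; 13.6%), CACGTG (the E box; 7.15%), the palindromic estrogen response element (0.0700%) and the palindromic androgen or glucocorticoid response element (0.00913%), each on both strands. A missing match says only that these letters are not in the window.

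Malat1 was the most abundant of the 8. Its TMM-adjusted level in female WT mice 1, 2 and 3 was 5817, 4884 and 3080.0 CPM, a mean of 4594 ± 1391 (SD, n = 3). In female Pou2f3-/- mice it was 7825, 7906 and 7880.2 CPM, or 7871 ± 41.3 (SD, n = 3). The knockout females were all above the WT females and nearly equal to each other. Male levels were 7796, 5998 and 6367 CPM in WT and 6259.8, 8619.8 and 8983 CPM in Pou2f3-/- mice, so the male groups overlapped. The female difference was 0.78 on the log2 scale (SE 0.23, adjusted p = 0.0178, edgeR), with a 95% interval of 0.28 to 1.27. Without female WT mouse 3 it was 0.52 (adjusted p = 0.0745), and with the authors' own divisors in place of TMM it was 0.38 (adjusted p = 0.101), so the call depended on that library and on the scaling. It was also lost without female Pou2f3-/- mouse 1 (0.74, adjusted p = 0.0529) or mouse 3 (0.73, adjusted p = 0.0546), and over all alternatives the adjusted p ran from 0.000754 to 0.101 (edgeR or DESeq2).

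Neat1 lies with a gap of 21133 bases to Malat1, at chr19:5874736-5897132 on the same strand (ENSMUSG00000092274.5), with a span of 22397 bases. Female WT levels were 360.1, 208 and 130.1 CPM in mice 1, 2 and 3 (233 ± 117, SD, n = 3). Female Pou2f3-/- levels were 811, 449 and 791 CPM (684 ± 203, SD, n = 3). Every knockout female exceeded every WT female, with knockout mouse 2 nearest to the WT range. The difference was 1.55 on the log2 scale (SE 0.37, adjusted p = 0.00579, edgeR; 95% interval 0.76 to 2.35). It kept an adjusted p under 0.05 under all 21 alternatives, which ranged from 8.6e-05 to 0.0263, the last without female WT mouse 3. No other of the 8 RNAs did so in this comparison.

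Per kilobase of annotated transcript, the scale on which RNAs of different length can be compared, Malat1 exceeded Neat1 in each group. The length was that of 1 transcript per gene, 7886 bases for Malat1 and 22397 for Neat1, which has 24 annotated transcripts. Counts from shorter forms of Neat1 would make its level per kilobase too low, and their share was not tested. In female WT glands the levels were 583 ± 176 CPM per kilobase for Malat1 and 10.4 ± 5.22 for Neat1 (SD, n = 3). In female Pou2f3-/- glands they were 998 ± 5.23 and 30.5 ± 9.08. As a ratio of counts within a library, which needs no scaling between libraries, Neat1 was 6.19%, 4.27% and 4.22% of Malat1 in female WT mice and 10.4%, 5.68% and 10.0% in female Pou2f3-/- mice. These groups overlapped, since 1 knockout value was below the highest WT value.

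**Figure D2:**
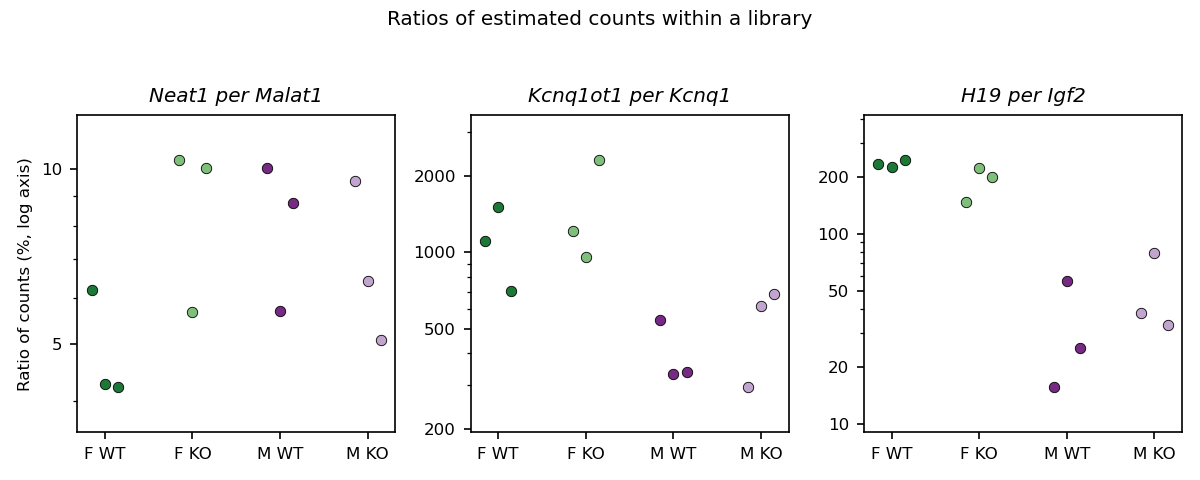
Ratios of estimated counts of 2 genes within each library, in percent on log axes, for the groups F WT, F KO, M WT and M KO; each point is 1 mouse. Kcnq1ot1 per Kcnq1 and H19 per Igf2 are lower in all 6 male libraries than in any female library.

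Kcnq1ot1 occupies chr7:142731402-142850327 on the minus strand (GRCm39, ENSMUSG00000101609.4), inside Kcnq1, a potassium channel gene of the opposite strand. Its RefSeq promoter, chr7:142850235-142850534 on the minus strand, held 3 CCAAT matches.
Kcnq1ot1: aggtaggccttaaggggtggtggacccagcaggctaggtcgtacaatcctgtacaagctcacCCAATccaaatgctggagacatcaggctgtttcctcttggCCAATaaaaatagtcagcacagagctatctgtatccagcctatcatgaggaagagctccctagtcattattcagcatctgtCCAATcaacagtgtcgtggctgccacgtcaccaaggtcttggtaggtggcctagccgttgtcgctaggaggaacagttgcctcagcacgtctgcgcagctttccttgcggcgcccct
It held 9 CpG dinucleotides, against a median of 7 (quartiles 3 and 20) over RefSeq promoters, and none of the other 5 motifs. Meg3, first of the Dlk1-Dio3 RNAs, has the first of 2 RefSeq promoters at chr12:109506629-109506928 on the plus strand.
Meg3: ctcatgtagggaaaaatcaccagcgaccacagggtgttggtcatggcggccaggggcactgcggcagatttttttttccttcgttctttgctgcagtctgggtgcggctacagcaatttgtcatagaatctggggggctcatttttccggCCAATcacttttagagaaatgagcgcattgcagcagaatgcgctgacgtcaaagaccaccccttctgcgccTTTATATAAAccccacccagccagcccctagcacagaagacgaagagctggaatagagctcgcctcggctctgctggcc
It held 13 CpG, 1 CCAAT and 2 overlapping TATAAA matches, 1 per strand, whereas the second Meg3 promoter held 1 CpG and none of the motifs. A match is a description of sequence and does not show that a factor binds.

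Kcnq1ot1 measured 115, 111 and 44.5 CPM in female WT mice (90.0 ± 39.5, SD, n = 3) and 191, 154 and 243 CPM in female Pou2f3-/- mice (196 ± 44.5, SD, n = 3). The female groups did not overlap, and WT mouse 3 was far below the other WT females. In males, WT levels of 117, 71.8 and 77.3 CPM overlapped with Pou2f3-/- levels of 65.4, 104 and 108 CPM. The female difference was 1.12 on the log2 scale (SE 0.33, adjusted p = 0.0171, edgeR; 95% interval 0.42 to 1.83). It lost its call without female WT mouse 3 (0.76, adjusted p = 0.0594) and without female Pou2f3-/- mouse 3 (0.90, adjusted p = 0.0820), within a range of 0.000839 to 0.0820 over the alternatives.

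Kcnq1, from the opposite strand, was also higher in female Pou2f3-/- glands, by 0.81 on the log2 scale (SE 0.20, adjusted p = 0.00712, edgeR). Counts of Kcnq1ot1 were 1106%, 1511% and 705% of those of Kcnq1 in female WT mice and 1211%, 963% and 2315% in female Pou2f3-/- mice, which overlapped. Males had lower ratios in every library, at 543%, 329.7% and 336% in WT and 294%, 612% and 683% in Pou2f3-/- mice. Kcnq1 itself was higher in male than in female WT glands (log2 1.46, adjusted p = 0.000101), whereas Kcnq1ot1 had a difference of -0.02 (adjusted p = 0.970); in Pou2f3-/- mice the Kcnq1 difference was 0.38 (adjusted p = 0.132, edgeR). The methods do not say whether strand was used in counting, so reads from Kcnq1ot1 and Kcnq1 cannot be told apart with certainty.

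Meg3, Rian and Mirg lie in that order on the plus strand of chromosome 12, at chr12:109506877-109538165 (ENSMUSG00000021268.19), chr12:109570242-109628150 (ENSMUSG00000097451.12) and chr12:109696198-109715898 (ENSMUSG00000097391.9), with gaps of 32076 and 68047 bases. Meg3 had 2.84, 0.987 and 0.887 CPM in female WT mice, from 34 to 146 counts (1.57 ± 1.0999, SD, n = 3). It had 5.83, 5.37 and 9.54 CPM in female Pou2f3-/- mice (6.92 ± 2.29, SD, n = 3), above every WT female. Its male levels were 4.52, 1.68 and 11.0 CPM in WT and 2.00, 4.61 and 2.47 CPM in Pou2f3-/- mice, with WT mouse 3 6.57-fold above WT mouse 2. The female difference of 2.11 on the log2 scale (SE 0.61, adjusted p = 0.0172, edgeR; 95% interval 0.78 to 3.44) lost its call without female WT mouse 2 (1.83, adjusted p = 0.0699), female WT mouse 3 (1.81, adjusted p = 0.0760) or female Pou2f3-/- mouse 3 (1.77, adjusted p = 0.0685), within 0.000477 to 0.0760 over the alternatives. Without female WT mouse 1 it was 2.82 (adjusted p = 0.00817).

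Rian, the snoRNA-rich transcript between the others, had 8.25, 5.25 and 5.63 CPM in female WT mice (6.38 ± 1.63, SD, n = 3) and 7.59, 11.1 and 12.5 CPM in female Pou2f3-/- mice (10.4 ± 2.53, SD, n = 3). The female groups overlapped, and the difference of 0.70 on the log2 scale (SE 0.28, adjusted p = 0.0646, edgeR) did not pass, although it did under 6 of 21 alternatives, with adjusted p from 0.0210 to 0.252. Its male levels were 4.38, 4.16 and 6.58 CPM in WT and 5.03, 10.4 and 7.60 CPM in Pou2f3-/- mice, which overlapped as well. Mirg, the distal miRNA host, was at the edge of detection, with 4, 9 and 1 counts in female WT mice and 13, 14 and 42 in female Pou2f3-/- mice. Its female groups did not overlap, yet its log2 difference of 2.13 (SE 0.84, adjusted p = 0.0626, edgeR; 95% interval 0.32 to 3.95) did not pass. It was 1.196 without female Pou2f3-/- mouse 3 (adjusted p = 0.335) and 2.99 without female WT mouse 2 (adjusted p = 0.0474), over a range of adjusted p from 0.0347 to 0.335. DESeq2 and edgeR with no filter called both Rian and Mirg.

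The miRNAs below are carried within Meg3, Rian, Mirg, H19 and Mir99ahg and are printed to show what these host RNAs encode. Mature sequences are from RefSeq (GRCm38.p6 table), 5′ to 3′, with the seed (bases 2 to 8) in capitals.
miR-770-5p: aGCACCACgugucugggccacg
miR-370-3p: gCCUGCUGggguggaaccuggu
miR-453: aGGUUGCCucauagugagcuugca
miR-496a-5p: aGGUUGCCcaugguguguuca
miR-410-3p: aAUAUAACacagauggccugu
miR-675-5p: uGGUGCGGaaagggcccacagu
miR-675-3p: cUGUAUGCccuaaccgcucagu
miR-99a-5p: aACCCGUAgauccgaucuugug
let-7c-5p: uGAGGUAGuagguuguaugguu
miR-125b-5p: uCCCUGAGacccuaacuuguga
Meg3 holds miR-770, Rian holds miR-370, Mirg holds miR-453, miR-496a and miR-410, H19 holds miR-675, and Mir99ahg holds miR-99a, let-7c and miR-125b-2. Among the mature sequences of these hosts, miR-453 and miR-496a-5p of Mirg share the seed GGUUGCC. On the strand of their hosts, 24 hairpin genes were annotated, 14 of them in Mirg, and RefSeq gave mature sequences for 23. Each hairpin gene had at most 1 count in any library, so the table measures the hosts and not their miRNAs. The 13 small nucleolar RNA genes inside Rian had 0 counts in every library.

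H19 lies at chr7:142129262-142133957 on the minus strand (ENSMUSG00000000031.19), 597444 bases from Kcnq1ot1. Its levels separated the sexes: female levels were 8.85, 5.004 and 5.35 CPM in WT (6.40 ± 2.13, SD, n = 3) and 4.61, 7.67 and 6.69 CPM in Pou2f3-/- mice (6.33 ± 1.56, SD, n = 3). Male levels were 0.266, 0.725 and 0.385 CPM in WT (0.459 ± 0.238, SD, n = 3) and 0.581, 1.22 and 0.503 CPM in Pou2f3-/- mice (0.767 ± 0.391, SD, n = 3). All 6 females were above all 6 males, whose counts were 20 to 75. Male WT glands had 14.0-fold less H19 than female WT glands (log2 -3.80, SE 0.41, adjusted p = 1.4e-05, edgeR), and male Pou2f3-/- glands 8.25-fold less than female Pou2f3-/- glands (log2 -3.04, SE 0.39, adjusted p = 5.9e-05, edgeR). Both calls held under all 21 alternatives. The genotype difference among females was -0.02 (SE 0.35, adjusted p = 0.975, edgeR; 95% interval -0.78 to 0.74), so changes of up to that size in either direction remain possible. Among males it was 0.74 (adjusted p = 0.542, edgeR; 95% interval -0.17 to 1.66), with 0.25 to 1.23 over the alternatives.

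Igf2, the reciprocally imprinted neighbour of H19, was also lower in males, by -0.87 in WT and -1.11 in Pou2f3-/- glands on the log2 scale (adjusted p = 0.00832 and 0.00143, edgeR). H19 counts were 147% to 244% of Igf2 counts in the 6 female libraries and 15.6% to 78.9% in the 6 male libraries. The authors' divisors for H19, relative to the median gene of each library, were 0.575 to 1.11 in females and 0.995 to 1.69 in males. With those divisors in place of TMM the sex difference of H19 was -4.56 in WT and -3.89 in Pou2f3-/- mice, the furthest from 0 of all alternatives, which otherwise reached -3.52 and -2.81 at the other end.

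Mir99ahg spans 615572 bases at chr16:76970521-77586092 on the plus strand (ENSMUSG00000090386.12). Female WT mice had 28.0, 31.2 and 20.9 CPM (26.7 ± 5.28, SD, n = 3) and female Pou2f3-/- mice 33.4, 39.1 and 33.4 CPM (35.3 ± 3.26, SD, n = 3). Male WT mice had 20.6, 15.9 and 15.1 CPM (17.2 ± 2.94, SD, n = 3) and male Pou2f3-/- mice 15.1, 13.4 and 13.2 CPM (13.9 ± 1.01, SD, n = 3). The order of the group means was female Pou2f3-/-, female WT, male WT and male Pou2f3-/-, and no 2 neighbouring groups overlapped. The female genotype difference, 0.40 on the log2 scale (SE 0.15, adjusted p = 0.0498, edgeR), lost its call under 14 of 21 alternatives, with adjusted p from 0.0210 to 0.272, and was 0.22 (adjusted p = 0.272) without female WT mouse 3. The male genotype difference of -0.31 (adjusted p = 0.475, edgeR) did not pass, and male groups did not overlap for 14.5% of all tested genes. This male difference was -0.16 without male WT mouse 1 (adjusted p = 0.868, edgeR). By sex, Mir99ahg was lower in males by 1.55-fold in WT (log2 -0.63, SE 0.15, adjusted p = 0.00541, edgeR) and by 2.54-fold in Pou2f3-/- glands (log2 -1.34, SE 0.15, adjusted p = 2.1e-05, edgeR), the latter under all 21 alternatives.

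Within the span of Mir99ahg, 9 transcripts of unconfirmed coding status and the lncRNA gene Gm21816 were tested on its strand. In female Pou2f3-/- glands 2 of the 9 were higher and none lower, where 17.6% of all tested genes were higher, with a median log2 difference of 0.40. Between male and female Pou2f3-/- glands, 7 of the 9 were lower in males, where 20.3% of all tested genes were, with a median of -1.25 and a range of -1.74 to -0.43, and Gm21816 was lower by -1.19 (adjusted p = 0.000983, edgeR). Reads of overlapping sense genes could have been divided between them by the transcript-level estimates, so these are not separate measurements of Mir99ahg. Opposite the start of Neat1, the antisense Frmd8os, with 20 to 93 counts, had a female genotype difference of 1.05 (adjusted p = 0.0631, edgeR). Frmd8os was lower in male than in female Pou2f3-/- glands (log2 -1.28, adjusted p = 0.0233, edgeR), as were 20.3% of all tested genes.

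**Figure D3:**
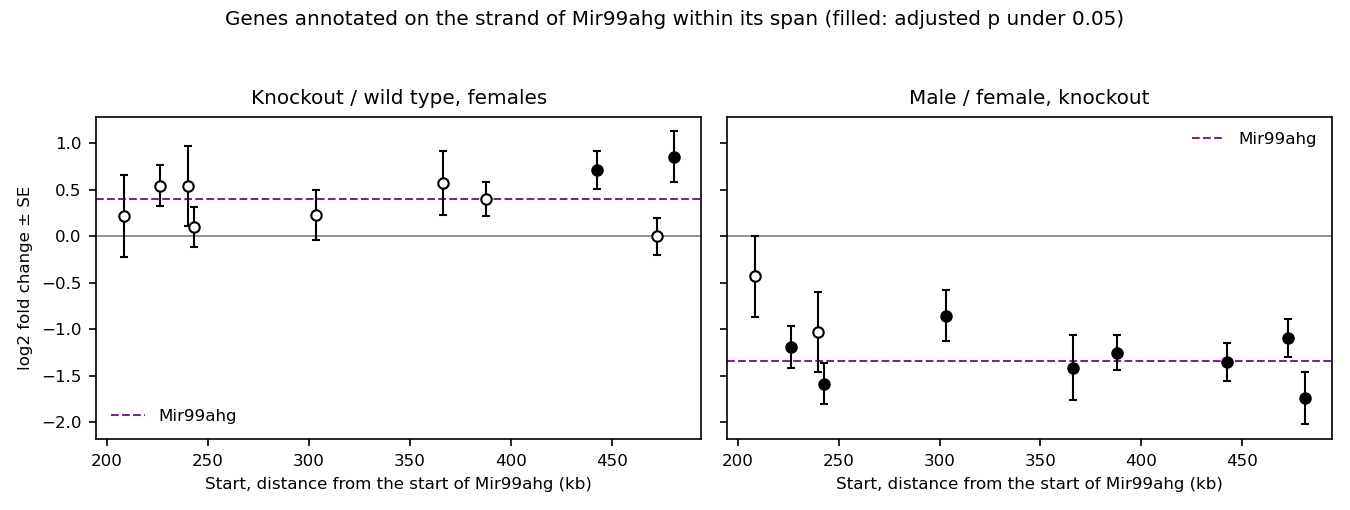
Log2 fold changes ± SE of the 10 tested genes annotated on the strand of Mir99ahg, by the distance of their start from its start in kilobases; the left panel is Pou2f3-/- against WT in females, the right panel male against female in Pou2f3-/- mice, and filled points have an adjusted p under 0.05 (edgeR). The dashed line is Mir99ahg itself, at 0.40 on the left and -1.34 on the right, and 8 of 10 points on the right are filled.

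Among males, none of the 8 RNAs differed by genotype at an adjusted p under 0.05 in edgeR (adjusted p from 0.425 to 0.972), where 0.235% of all tested genes and 0 of 1793 lncRNA genes passed. At an unadjusted p under 0.05 there was 1, Rian (log2 0.61, 95% interval 0.01 to 1.21), where 11.5% of all tested genes were, and DESeq2 also called none. The Rian difference was 0.33 without male Pou2f3-/- mouse 2 (adjusted p = 0.985, edgeR). The intervals for males were -0.25 to 0.73 for Malat1, -0.84 to 0.71 for Neat1, -0.64 to 0.76 for Kcnq1ot1 and -2.17 to 0.32 for Meg3. Of these, the male intervals of Malat1 and Kcnq1ot1 overlapped those of the females, whereas those of Neat1 and Meg3 did not reach them. The male Meg3 difference of -0.92 (adjusted p = 0.587) rested on 1 library and was -0.037 without male WT mouse 3 (adjusted p = 0.997, edgeR).

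The difference between the female and the male genotype contrast was then tested itself, as an interaction. It passed for Meg3 (3.03 on the log2 scale, SE 0.84, adjusted p = 0.0217), Mir99ahg (0.71, SE 0.21, adjusted p = 0.0294) and Neat1 (1.62, SE 0.51, adjusted p = 0.0358) in edgeR, 3 of 8 RNAs, where 25.7% of all tested genes passed, 13.4% with the larger value in females. All 3 had the larger value in females, as did 18.4% of lncRNA genes. Without female WT mouse 3 none of the 8 passed, with 2.70 for Meg3 (adjusted p = 0.0561), 0.50 for Mir99ahg (adjusted p = 0.0829) and 1.27 for Neat1 (adjusted p = 0.0774, edgeR). Over all alternatives the adjusted p ran from 0.000764 to 0.0596 for Meg3, from 0.0132 to 0.0848 for Mir99ahg and from 0.00379 to 0.102 for Neat1, and none of the 8 passed without female Pou2f3-/- mouse 3 or male Pou2f3-/- mouse 3 either. The lowest Meg3 value, 2.15 (adjusted p = 0.0596), came without male WT mouse 3. For Kcnq1ot1 (1.07, adjusted p = 0.100) and Malat1 (0.53, adjusted p = 0.230) a difference between the sexes was not shown in the main fit. With no low-count filter Kcnq1ot1 passed (1.05, adjusted p = 0.0312, edgeR), and Malat1 was 0.25 without female WT mouse 3.

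**Figure D4:**
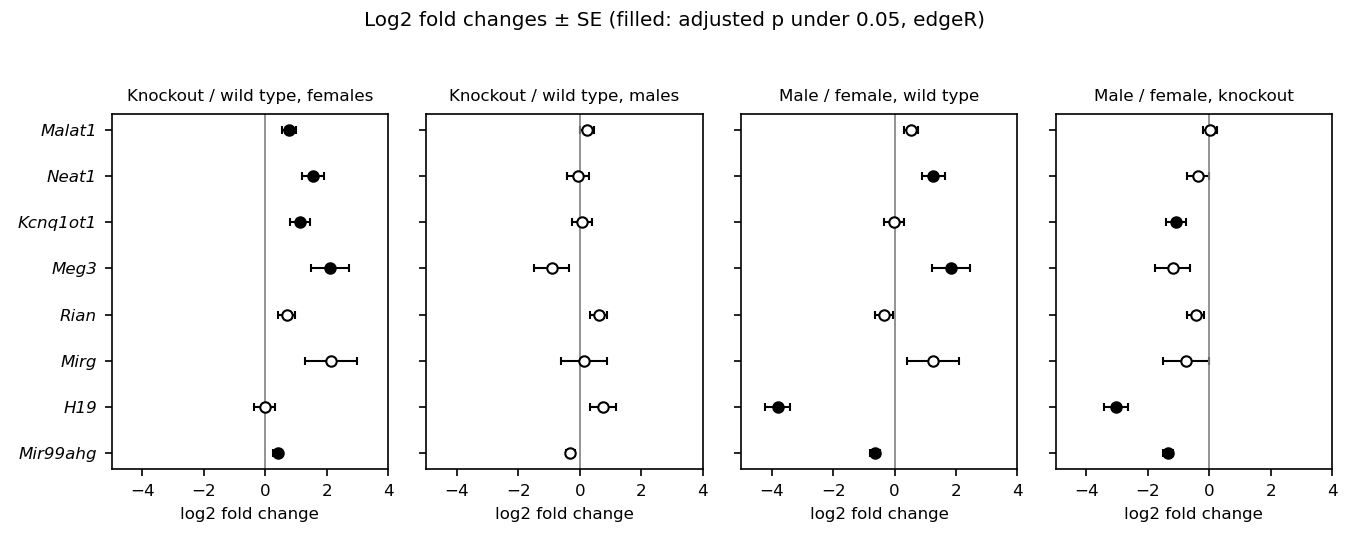
Log2 fold changes ± SE of the 8 RNAs in 4 comparisons (Pou2f3-/- against WT in each sex, male against female in each genotype); filled points have an adjusted p under 0.05 (edgeR). Filled points number 5, 0, 4 and 3 from left to right, and H19 lies furthest from 0 in both sex comparisons.

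By sex among WT mice, 4 of the 8 RNAs passed, where 36.5% of all tested genes did, 20.5% as higher and 16% as lower in males: Neat1 (log2 1.27, SE 0.36, adjusted p = 0.0157) and Meg3 (1.84, SE 0.61, adjusted p = 0.0314) were higher in males, and H19 and Mir99ahg lower (edgeR). Groups did not overlap for Malat1, H19 and Mir99ahg, as for 47.6% of all tested genes. Malat1 (0.55, adjusted p = 0.0762, edgeR) did not pass in the main fit. It passed in DESeq2 (0.50, adjusted p = 0.0304) and without female WT mouse 1 (0.72, adjusted p = 0.0273, edgeR), and was 0.32 without female WT mouse 3. The Neat1 groups overlapped, with male WT levels of 784, 342 and 557 CPM beside the female value of 360.1. Without male WT mouse 3 the Meg3 difference was 0.96 (adjusted p = 0.210), and without male WT mouse 1 that of Neat1 was 0.95 (adjusted p = 0.0807). Without female WT mouse 2 or 3 the Meg3 difference was 1.58 or 1.57 (adjusted p = 0.108 and 0.113) and that of Neat1 1.19 or 0.98 (adjusted p = 0.0548 and 0.0612, edgeR). With the authors' divisors that of Mir99ahg was -0.33 (adjusted p = 0.110) and that of Meg3 1.44 (adjusted p = 0.0740), and Meg3 was also lost with only the groups compared in the fit (1.84, adjusted p = 0.0652). Over the alternatives the adjusted p ran from 0.00141 to 0.210 for Meg3 and from 0.000535 to 0.0807 for Neat1.

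By sex among Pou2f3-/- mice, 3 of the 8 passed, where 43.5% of all tested genes did, 20.3% as lower in males: H19, Mir99ahg and Kcnq1ot1 (log2 -1.08, SE 0.33, adjusted p = 0.0167, edgeR) were lower in males. Kcnq1ot1 lost its call without female Pou2f3-/- mouse 3 (-0.84, adjusted p = 0.0905) or male Pou2f3-/- mouse 1 (-0.88, adjusted p = 0.0683). Neat1, at 598, 553 and 456 CPM in these males, no longer differed past the threshold from the females (-0.35, 95% interval -1.13 to 0.43, adjusted p = 0.457). This Neat1 difference was -0.16 without female Pou2f3-/- mouse 1 and -0.76 with the authors' divisors (adjusted p = 0.0623, edgeR). Groups did not overlap for Kcnq1ot1, Meg3, H19 and Mir99ahg, as for 54.8% of all tested genes. Meg3 (-1.19, adjusted p = 0.114, edgeR) did not pass in the main fit. It passed under 3 alternatives: the authors' divisors (-1.53, adjusted p = 0.0456), no low-count filter (-1.17, adjusted p = 0.0316) and only the groups compared (-1.20, adjusted p = 0.0169, edgeR). The median over the 8 was -0.92, against -0.45 over lncRNA genes and -0.02 over all genes. The genotype and sex comparisons share libraries, so that female WT mouse 3 enters both the female genotype and the WT sex values.

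**Figure D5:**
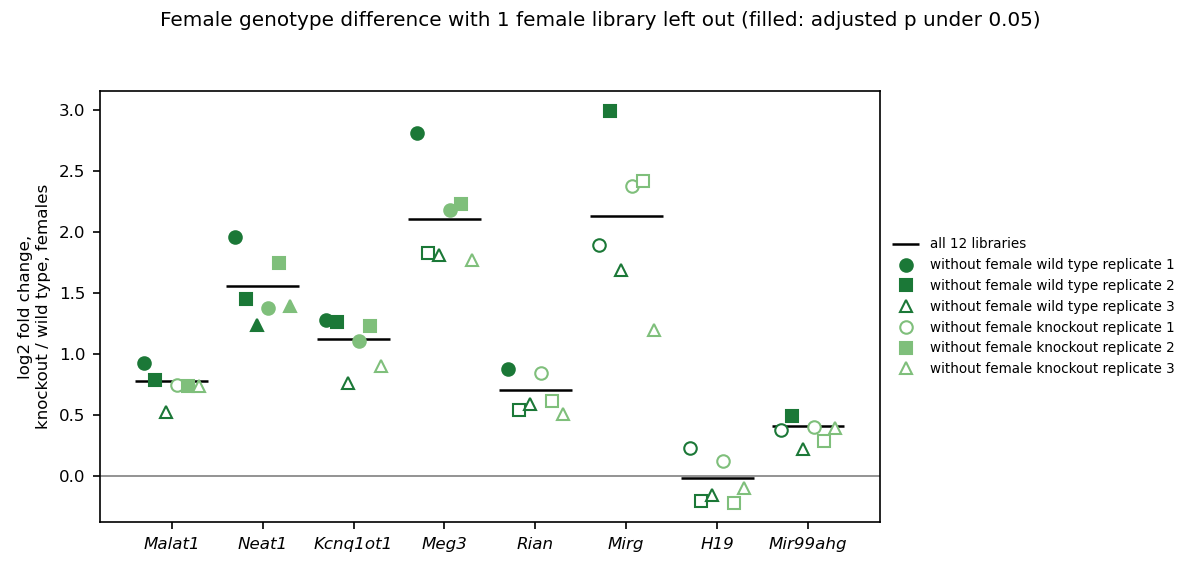
Log2 fold change of Pou2f3-/- against WT females for each RNA with all 12 libraries (line) and with 1 female library left out (points; colour and shape name the library left out, filled where the adjusted p is under 0.05 in edgeR). Neat1 is filled in all 6 cases, H19 in none, and without female WT replicate 3 or female Pou2f3-/- replicate 3 Neat1 alone is filled.

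Cell type markers moved with the female comparison too. Summed acinar markers did not overlap between the female groups, at 376830 to 597364 CPM in female WT and 218615 to 260636 CPM in female Pou2f3-/- libraries, and 4 of 10 were called lower and none higher, where 19.3% of all tested genes were lower and 17.6% higher. In males the same sum was 93876 to 144172 CPM in WT and 78146 to 116978 CPM in Pou2f3-/- libraries. Of 8 macrophage markers, 4 were lower in female Pou2f3-/- glands, and of 12 duct markers 2 were higher and 1 lower. Of 6 myoepithelial and basal markers 3 were lower, with summed levels of 141 to 188 CPM in female WT and 115 to 128 CPM in female Pou2f3-/- libraries, which did not overlap. Of 8 adipocyte markers 3 were lower and 1 higher in females, with a median log2 difference of -2.11 against 2.32 in males, and in the interaction 6 were lower and 1 higher. Summed adipocyte markers overlapped in females, at 21.4 to 77.0 CPM in WT (median 27.5) and 38.4 to 40.6 CPM in Pou2f3-/- libraries. The WT median was thus below every female Pou2f3-/- library. In males the sums were 16.3 to 20.9 CPM in WT and 21.6 to 63.8 CPM in Pou2f3-/- libraries. Macrophage markers had medians of -0.67 in females and 0.71 in males, with 4 of 8 lower in the interaction, where 25.7% of all tested genes passed in either direction. Summed macrophage markers overlapped in females, at 89.4 to 209 CPM in WT (median 116) and 72.6 to 109 CPM in Pou2f3-/- libraries. Their male sums did not overlap, at 76.6 to 91.8 CPM in WT and 94.5 to 165 CPM in Pou2f3-/- libraries. In males edgeR called none of either list, with 6 adipocyte and 5 macrophage markers at an unadjusted p under 0.05, as were 11.5% of all tested genes, and DESeq2 called 2 adipocyte and no macrophage markers. Summed duct markers were 4569.7 to 8462 CPM in female WT and 4955 to 9168 CPM in female Pou2f3-/- libraries, against 44172 to 76872 CPM in male WT and 56984 to 73476 CPM in male Pou2f3-/- libraries. Of 8 fibroblast markers none was called in females, and in males Dpt was called by edgeR (log2 1.84, adjusted p = 0.0175), with all 8 at an unadjusted p under 0.05, against that 11.5%, and summed levels of 416 to 457 CPM in WT and 516 to 922 CPM in Pou2f3-/- libraries. DESeq2 called 5 of them higher in male Pou2f3-/- glands, where it called 406 of 17893 genes in all. By sex, 7 of 10 acinar markers were lower in male WT and 6 in male Pou2f3-/- glands than in females, and of 6 myoepithelial and basal markers 4 and 5 were higher, where 20.5% and 23.2% of all tested genes were higher and 16% and 20.3% lower. In the same order of genotypes, 8 and 11 of 12 duct markers were higher in males, and 4 and 5 of 8 endothelial markers lower. Of 8 macrophage markers 6 were lower in male WT glands and 3 higher in male Pou2f3-/- glands, and of 8 adipocyte markers 5 were lower in male WT glands, whereas 4 were higher and 1 lower in male Pou2f3-/- glands. Fibroblast markers were higher in 4 of 8 and blood markers in 3 of 4 tested in male Pou2f3-/- glands, with median log2 differences of 0.70 and 3.12. In the interaction 2 of 4 blood markers were lower, with a median of -3.58. By genotype in males edgeR called none of them, with 3 at an unadjusted p under 0.05, against that 11.5%. Their summed levels were 1.45 to 1.73 CPM in male WT and 2.89 to 9.86 CPM in male Pou2f3-/- libraries. The part of these shifts in the values of the 8 RNAs was not tested, and for the sex comparisons these markers and sex cannot be told apart.

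Across the 12 libraries, Malat1 and Neat1 varied together (Pearson r = 0.85 of log2 CPM), as did Neat1 and Meg3 (r = 0.81), Meg3 and Mirg (r = 0.79) and H19 and Mir99ahg (r = 0.82), whereas H19 and Neat1 did not (r = -0.34). These are descriptions over libraries that share sex, genotype and scaling. The genes most like each RNA among 9271 with a mean log2 CPM above 2 were chosen by the highest r. For Malat1 these were Zfp236 (r = 0.95), Impact and Fgd6, and for Neat1 Git2 (r = 0.98), Patl1 and Zfr2. For Kcnq1ot1 they were Nktr (r = 0.97), Tra2a and Tardbp, and for H19 Abcc9 (r = 0.98), Zfp800 and Ttpa. Cacna1a (r = 0.94), Hmbox1 and Lrrk1 were nearest to Meg3, Adamts12 (r = 0.91), Mmp14 and Adam19 to Rian, and Nr6a1 (r = 0.92), Ccdc93 and Cep350 to Mirg. Mir99ahg was nearest to Gm42843 (r = 0.99), Zfp280d and Hnrnph1.

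Proteins that build or bind paraspeckles, the bodies made on Neat1, were listed as 17 genes, all tested. In female Pou2f3-/- glands 10 were higher and 3 lower, where 17.6% of all tested genes were higher and 19.3% lower, with a median log2 difference of 0.42 against 0.03 over all genes. Cpsf7, a cleavage factor subunit (0.87, adjusted p = 0.000255), Ewsr1 (0.68, adjusted p = 0.000914) and Rbm14 (0.62, adjusted p = 0.00241), both RNA-binding proteins, were higher, and Hnrnpk, an RNA-binding protein of the nucleus (-0.53, adjusted p = 0.0028), was lower (edgeR). In males edgeR called none of the 17, with 2 at an unadjusted p under 0.05, where 11.5% of all tested genes were, and none by DESeq2, and the median was -0.07. Without female WT mouse 3, 8 of the 17 were called in females in place of 13, while calls over all genes went from 6611 of 17893 to 4896 of 18461.

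Of 28 further noncoding RNA symbols, most of them nuclear, 26 were tested, and 4 were higher and 2 lower in female Pou2f3-/- glands, with a median of 0.16. Of all tested genes 36.9% were called, and of lncRNA genes 24.5% were higher and 2.18% lower. A difference from these shares was not tested. Airn, the antisense RNA of the Igf2r domain (2.11, adjusted p = 0.000554), Firre (1.79, adjusted p = 0.000611) and Ftx (1.05, adjusted p = 0.00263), both made from the X chromosome, were higher, and Norad, a mostly cytoplasmic RNA that binds Pumilio proteins (-0.68, adjusted p = 0.00111), was lower (edgeR). In males edgeR called none of the 26, with 3 at an unadjusted p under 0.05, where 11.5% of all tested genes were, and none by DESeq2.

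Among 16 protein-coding genes of the imprinted domains that hold Kcnq1ot1, H19, Meg3, Rian and Mirg, 11 were tested. In female Pou2f3-/- glands Kcnq1 was higher, and Cd81, a tetraspanin (-0.43, adjusted p = 0.0113), and Nap1l4, a histone chaperone (-0.42, adjusted p = 0.00577), were lower (edgeR), while the other 8 did not pass and the median was 0.08. Of all tested genes 36.9% were called, and a difference between these shares was not tested. In males edgeR called none of the 11, with 2 at an unadjusted p under 0.05, where 11.5% of all tested genes were, and none by DESeq2. By sex, 4 of the 11 were higher and 2 lower in male than in female WT glands, where 36.5% of all tested genes passed. In Pou2f3-/- mice 6 were higher and 2 lower in males, where 43.5% of all tested genes passed (edgeR). Dlk1, the paternal partner of Meg3, had 9 to 27 counts in female WT and at most 3 in male WT glands, a difference by sex of -3.38 in WT and -2.31 in Pou2f3-/- mice (adjusted p = 0.000775 and 0.00556, edgeR). Phlda2, a growth-restraining gene of the Kcnq1ot1 domain, was higher in males by 3.15 in WT and 3.18 in Pou2f3-/- mice (adjusted p = 0.00201 and 0.00116, edgeR), from 2 to 4 counts in female WT glands and at most 44 in male WT glands. Osbpl5, a lipid-binding protein gene of the same domain, was higher in males by 1.17 in WT mice (adjusted p = 2.8e-06, edgeR). Th, Ins2, Ascl2, Dio3 and Rtl1 had at most 8 counts in any library and were not tested.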

How the data were processed

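Bulk RNA was sequenced from the SMG of 12 mice, 3 in each of 4 groups taken from the labels. The authors quantified reads with Salmon 1.10.1 against Gencode M35 transcripts and deposited estimated counts per gene, which were rounded to whole numbers here. A second deposited table held the authors' normalized signal, in which each estimated count was divided by a factor that differed by gene and library; how these factors were made is not given in the sources used here, and they served only as an alternative. No column of the authors' own comparisons was used.

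Counts were scaled by TMM, filtered with filterByExpr and tested with edgeR 4.0.16 (quasi-likelihood, 1 mean per group, all 12 libraries, R 4.3.3), and p-values were adjusted by the Benjamini-Hochberg method over all 17893 tested genes, with a threshold of 0.05. Intervals are 95% and two-sided, and n is mice; a prior count of 2 was used for log2 CPM. DESeq2 1.42.0 was an alternative, as were other scalings and filters, a replicate block and leaving out each library. Coordinates are from Gencode M39 (GRCm39), which held 55563 of the 56065 identifiers.

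The members were picked by symbol, by a rule that uses no measured value, but they and the gene lists were chosen with earlier results of these data known. Named genes were all 8 members, up to 4 genes per list with the smallest adjusted p in a genotype comparison, tested genes of the members' imprinted domains, genes overlapping a member, and the 3 genes most like each member (Pearson r of log2 CPM, mean above 2). Sequences were read from RefSeq tables (GRCm38.p6), and printed promoters were placed by exact match to GRCm39.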

Additional observations from a re-analysis of the deposited data

Results flagged for a closer look

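For 20 of the named genes the genotype difference in females was not the difference in males, by the edgeR interaction test with adjusted p from 0.00294 to 0.0495. Values are the female minus the male log2 fold change of Pou2f3-/- against WT. Among the 8 RNAs these were Meg3 (3.03), Neat1 (1.62) and Mir99ahg (0.71). Of the other noncoding RNAs, Airn (2.36), Firre (2.07) and Ftx (1.11) had the larger value in females, and Norad (-0.72) the smaller. Of the paraspeckle proteins, Ewsr1 (0.99), Cpsf7 (0.93) and Rbm14 (0.69) were larger in females. Kcnq1 (1.08), which shares its locus with Kcnq1ot1, was larger in females, and Nap1l4 (-0.44) was smaller. In other imprinted domains the values were 2.89 for Mcts2, 0.81 for Ppp1r9a, -0.86 for Snrpn and -0.54 for Igf2r. Dnmt3b (1.15), Ehmt1 (0.69), Setdb1 (0.65) and Dnmt3a (0.63), which write DNA or histone methylation, were larger in females. All of these were named for passing in females or as members, so their number is no measure of how common such differences are. Groups of 3 mice were too small for a test of single outlying samples.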

How the results depend on the processing

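With edgeR's TMM fit, 5 of the 8 RNAs were called by genotype in females, 4 by sex in WT mice and 3 in the interaction. With the authors' divisors 3 were called by genotype in females and 2 by sex in WT mice. Leaving out single libraries gave 1 to 5 by genotype in females, 0 to 3 in the interaction and 2 to 5 by sex in WT mice. The lowest counts came without female WT mouse 3 or female Pou2f3-/- mouse 3 for the female comparison (1 each), without either of these or male Pou2f3-/- mouse 3 for the interaction (0 each), and without female WT mouse 2 or 3 for sex in WT mice (2 each). Calls over all genes fell as well, in females from 6611 to 4896 and 5227, in the interaction from 4604 to 3483, 3435 and 2984, and by sex in WT mice from 6523 to 5617 and 5293, in the order named. In males 0 were called under every alternative run. Over all values and alternatives, 725 kept direction and side of the threshold, 55 lost a call, 15 gained one and 31 changed sign.

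Changes of sign occurred in differences that did not pass in the main test. For H19 in females the value was 0.084 with upper-quartile scaling, 0.27 with the authors' divisors and 0.019 with at least 10 counts in every library. With the authors' divisors Kcnq1ot1 was -0.015 by genotype in males and 0.42 by sex in WT mice, and the interaction of Rian was -0.046. Malat1 by sex in Pou2f3-/- mice was -0.14 with upper-quartile scaling. Leaving out libraries gave -0.22 to 0.23 for H19 in females; -0.32 to 0.26, -0.072 to 0.31 and -0.58 to 0.68 for Neat1, Kcnq1ot1 and Mirg in males; -0.15 to 0.37 for the interaction of Rian; -0.35 to 0.17 for Kcnq1ot1 by sex in WT mice; and -0.077 to 0.17 and -1.45 to 0.21 for Malat1 and Mirg by sex in Pou2f3-/- mice. The cause was not tested.

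Deviations of same-numbered WT and Pou2f3-/- mice of a sex had correlations of -0.13 to 0.09. With 3 mice per group this does not settle whether replicate numbers paired the mice. With a replicate block 5 RNAs were called by genotype in females, 3 in the interaction, 3 by sex in WT mice (Meg3 was lost, at 1.68, adjusted p = 0.0625) and 3 by sex in Pou2f3-/- mice, and Neat1 in males was 0.010. Across all genes, male genotype calls numbered 42 in edgeR, 406 in DESeq2, 389 with no low-count filter, and 13 to 635 with a library left out, the last without male Pou2f3-/- mouse 1. Mirg had 1 to 42 counts per library, the fewest of the 8.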

Other observations

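Of 40 protein-coding genes in other imprinted domains, 30 were tested. In female Pou2f3-/- glands 4 were higher and 5 lower, with a median log2 difference of -0.11, beside 36.9% of all tested genes called. Mcts2, a retrogene within an intron of another gene (2.42, adjusted p = 0.000292), and Ppp1r9a, which binds protein phosphatase 1 (0.60, adjusted p = 0.000404), were higher. Snrpn, a spliceosome component (-0.93, adjusted p = 0.00158), and Igf2r, the receptor that clears Igf2 (-0.63, adjusted p = 0.00313), were lower (edgeR). In males edgeR called none, with 8 at an unadjusted p under 0.05, where 11.5% of all tested genes were, and 2 called by DESeq2.

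Of 16 factors that establish or maintain imprints, 14 were tested, and 6 were higher and 3 lower in female Pou2f3-/- glands, where 17.6% of all tested genes were higher and 19.3% lower, with a median of 0.22. The histone methyltransferases Setdb1 (0.53, adjusted p = 0.000861) and Ehmt1 (0.55, adjusted p = 0.00383) and the DNA methyltransferases Dnmt3a (0.57, adjusted p = 0.00135) and Dnmt3b (1.04, adjusted p = 0.00446) were higher (edgeR). In males edgeR called none of the 14, with none at an unadjusted p under 0.05, where 11.5% of all tested genes were, and none by DESeq2.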
